A study of Mus musculus with 6 samples.

Results

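Growth factor receptors signal through the ERK cascade, in which RAS, RAF and MEK kinases activate the ERK kinases in turn, and cells that use this cascade transcribe genes that restrain it. Sprouty and Spred proteins dampen signalling around RAS and RAF, dual-specificity phosphatases remove the activating phosphates from ERK, and the PEA3-type ETS factors Etv4 and Etv5 are transcription factors whose transcripts rise with FGF and ERK signalling. In MuSCs (muscle stem cells, which reside beside the fibres of skeletal muscle), FGF signalling drives exit from quiescence, and Sprouty1 is known to help cycling cells return to it. The 10 genes of this feedback circuit examined here were Spry1, Spry2, Spry4, Spred1, Spred2, Spred3, Dusp4, Dusp6, Etv4 and Etv5. They were taken by gene symbol from a table of 22081 genes, and all 10 were found there and passed the filter on low values.

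RNA-seq was performed on total RNA of freshly isolated MuSCs from C57BL/6 mice, with 3 libraries of the genotype labelled control, whose titles call them WT, and 3 labelled Taf4asKO. Taf4asKO mice carried floxed Taf4 alleles (the gene is called Taf4a in the study, and 2 of its exons are flanked by loxP sites) and a tamoxifen-inducible Cre expressed from Pax7, so that deletion was limited to cells expressing this stem cell gene when tamoxifen was given. By the study's methods tamoxifen was given to adult mice. The labels give neither the age nor the sex of the mice behind each library, nor whether the controls carried Cre. The study sorted MuSCs as negative for SCA1, CD45 and CD31 and positive for either integrin alpha 7 or a Pax7 fluorescent reporter, and which of the latter applied to these libraries is not given.

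Values are normalized counts, that is, reads per gene divided by a factor for the depth of each library. They summed to between 12338676 and 14551732 per library, from an estimated 10.6 to 17.6 M counted reads. The targeted gene Taf4 was counted at 613, 534 and 478 (normalized) in the controls, replicates 1 to 3, and at 631, 565 and 574 in the libraries labelled Taf4asKO. Its gene total did not separate the groups (log2 fold change 0.13, 95% confidence interval -0.14 to 0.40), and it does not isolate the 2 deleted exons, so each direction given here is relative to the groups as labelled. The study assessed the deletion separately at the DNA, RNA and protein level, in data not analysed here. The cells carried Pax7, a transcript that marks MuSCs, at 12082 to 13007 normalized counts in control and 10363 to 11164 in Taf4asKO. Every Taf4asKO library lay below every control (log2 fold change -0.21, 95% confidence interval -0.42 to -0.0069). Pax7 did not pass the threshold given below.

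The comparison asked whether transcripts of the ERK feedback circuit differ in MuSCs after inactivation of Taf4a. Of the 10 genes, 1 passed the threshold (limma, adjusted p under 0.05 over all genes tested and a fold change of at least 1.3), namely Spred1, which was higher in Taf4asKO MuSCs. None passed lower. Across all 18562 genes tested, 12.6% passed, 5.93% higher and 6.71% lower (18.1% with the replicate number as a block), so the share of the circuit that passed lay near that of all genes. At an unadjusted p under 0.05 the count was also 1 of 10, against 28.8% of all genes tested. The median absolute log2 fold change was 0.088 for the 10 genes, 0.31 for all genes tested and 0.25 for the 11323 genes with a mean of at least 50. Control and Taf4asKO libraries did not overlap for 2 of the 10 genes, Spry2 and Spred1, against 33.0% of all genes tested. In bulk RNA, a change in the number of cells of a type and a change in RNA per cell cannot be told apart.

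**Figure D1:**
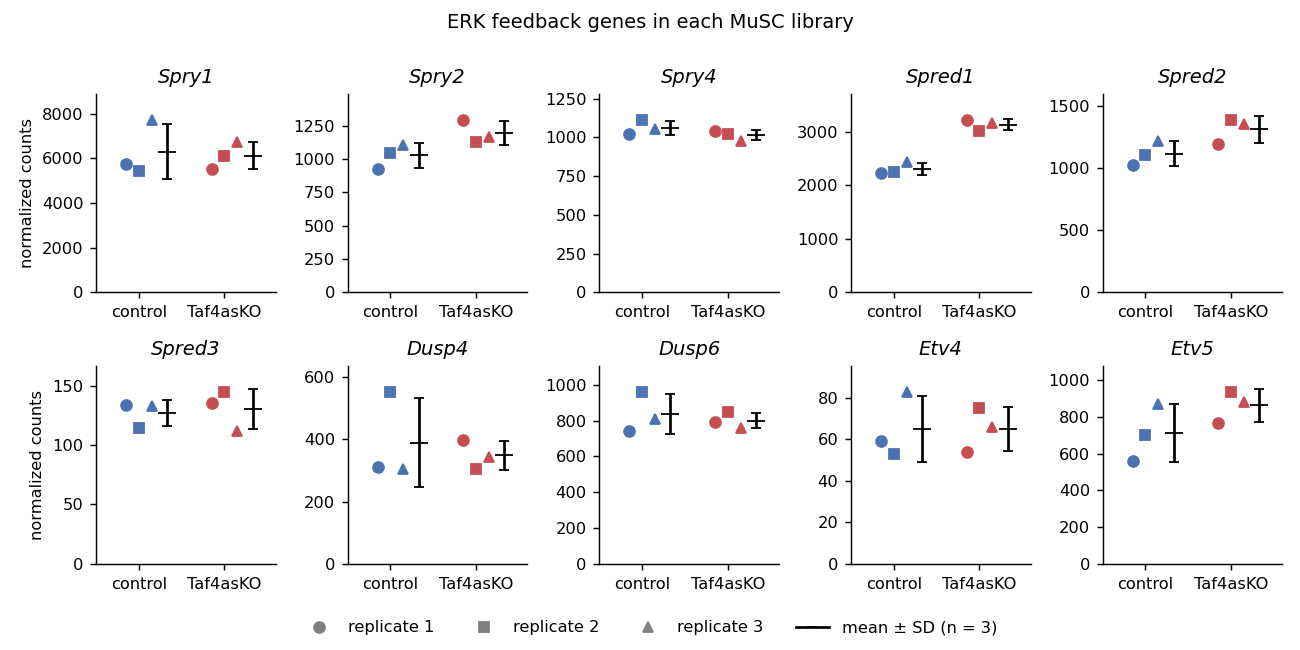
Normalized counts of the 10 ERK feedback genes in each library (y axes start at 0; blue, control; red, Taf4asKO; symbol shape, replicate number; black, mean ± SD of 3 libraries). Spred1 is the gene with a wide gap between groups, from 2228 to 2428 in control and from 3017 to 3222 in Taf4asKO.

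Sprouty proteins are induced by receptor tyrosine kinases and inhibit them in return. Spry1 (ENSMUSG00000037211, mm10 chromosome 3, 37639947 to 37644598, plus strand) was the most abundant transcript of the circuit and lay at the 99.3rd percentile of all genes tested by mean normalized count. Normalized counts of Spry1 were 5742, 5444 and 7720 in the controls (replicates 1 to 3, the order used throughout) and 5504, 6115 and 6738 in the Taf4asKO libraries. The highest library was a control, the groups overlapped over most of their range, and replicates differed more than groups (log2 fold change -0.03, SE 0.14, adjusted p 0.918). The 95% confidence interval of the log2 fold change was -0.34 to 0.28, so that a change of 1.3-fold (0.38 on the log2 scale) lay outside it in either direction. Without control replicate 3 the sign turned (0.13), as it did without Taf4asKO replicate 1 (0.044). Spry1 shares 710 exon bases with Gm42922 on the opposite strand, and the authors left out reads overlapping several genes. The strand setting of that counting is not given, and reads of the shared stretch cannot be attributed.

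Spry2 (ENSMUSG00000022114, chromosome 14, 105891949 to 105896819, minus strand) showed 927, 1048 and 1110 normalized counts in the 3 controls and 1295, 1126 and 1169 in Taf4asKO. All 3 Taf4asKO libraries were above all control libraries, the lowest of them narrowly, and the gene did not pass (log2 fold change 0.22, SE 0.11, adjusted p 0.204). Its interval, -0.017 to 0.46 on the log2 scale, holds changes past 1.3-fold as well as none. Spry4 (ENSMUSG00000024427, chromosome 18, 38586268 to 38601268, minus strand), whose transcripts are commonly read as a marker of FGF activity, had 1022, 1113 and 1051 in control and 1040, 1024 and 979 in Taf4asKO. Its libraries overlapped, with a log2 fold change of -0.07 (SE 0.09, adjusted p 0.686) and an interval of -0.27 to 0.14. Per kilobase of exon, the 3 Sprouty genes summed to 2885 ± 455 in control and 2892 ± 178 in Taf4asKO (SD, n = 3), and Spry1 made up 74.9% ± 3.07 and 72.7% ± 3.04 of that sum.

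Spred proteins carry a Sprouty-like C-terminal domain and inhibit RAS through neurofibromin, the RAS GTPase-activating protein encoded by Nf1, which Spred1 binds. Spred1 (ENSMUSG00000027351, chromosome 2, 117121374 to 117182279, plus strand) showed 2228, 2250 and 2428 normalized counts in the 3 controls and 3222, 3017 and 3163 in Taf4asKO. All Taf4asKO libraries were above all controls, and the gap between the groups was wider than the range within either. The transcript rose from 2302 ± 110 to 3134 ± 106 (SD, n = 3), a 1.36-fold change with an interval of 1.19 to 1.56 (log2 fold change 0.45, SE 0.09, adjusted p 0.0100). Spred1 passed in 13 of 14 alternative analyses, with adjusted p between 0.00468 and 0.0588, and lost its call without Taf4asKO replicate 3 (log2 fold change 0.44, adjusted p 0.0588). The lower end of its interval lies under the 1.3-fold limit, so these data place the rise above 0 but not above that limit.

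Markers of other cells in the muscle moved with the groups alongside Spred1. The Schwann and glial markers Sox10 and Mbp passed higher, in 11 and 9 of the 14 alternatives. Sox10 ranged from 185 to 534 normalized counts in control and from 734 to 1016 in Taf4asKO, and Mbp from 336 to 635 and from 723 to 966. Of 4 smooth muscle and pericyte markers 2 passed higher (5.93% of all genes tested), and the sums of the 4 were 8295 to 12870 and 12607 to 14527. Endothelial markers summed to 878 to 1263 and 1389 to 1680 with 0 of 5 past the threshold, 4 at an unadjusted p under 0.05 (28.8% of all genes tested) and 2 past the threshold with the replicate number as a block. Of 6 fibro-adipogenic markers 1 passed, Col3a1, which was lower, while the other 5 had log2 fold changes above 0 and 5 of 6 passed with the block. The fibro-adipogenic sums were 47833 to 52101 and 16896 to 23155, most of it Col3a1, and the other 5 markers summed to 1608 to 4401 in control and 3814 to 5582 in Taf4asKO. Control replicate 1 had the lowest values of Sox10 and Mbp and the lowest sums of the pericyte and endothelial markers. It also had the lowest value of 5 of the 10 feedback genes, Spred1 (2228) among them. Without that library the log2 fold change of Spred1 was 0.42, the lowest value with 1 library left out. Sox10 (534 and 420 in control, 734 to 1016 in Taf4asKO) and Mbp (635 and 538, 723 to 966) still did not overlap between groups without it. Of 7 MuSC markers, 3 passed lower (Myf5, Itga7, Cdh15) and 1 higher (Vcam1), against 6.71% and 5.93% of all genes tested. The part of these cells in the level of Spred1 was not tested.

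Spred2 (ENSMUSG00000045671, chromosome 11, 19924375 to 20024026, plus strand), another RAS inhibitor of the family, showed 1023, 1107 and 1220 normalized counts in the 3 controls and 1191, 1389 and 1356 in Taf4asKO. The lowest Taf4asKO library lay under the highest control, and the gene did not pass (log2 fold change 0.23, SE 0.11, adjusted p 0.183, interval -0.0055 to 0.47). Spred3 (ENSMUSG00000037239, chromosome 7, 29158829 to 29168647, minus strand), the remaining member of the family, was scarce, with 134, 114 and 133 in control and 135, 145 and 112 in Taf4asKO. Its groups overlapped fully (log2 fold change 0.04, SE 0.17, adjusted p 0.916, interval -0.34 to 0.41), its sign turned in 2 of the 6 analyses without 1 library, and it shares 202 exon bases with Ggn on the opposite strand. The 3 Spred genes together had 602 ± 37.4 normalized counts per kilobase in control and 767 ± 11.8 in Taf4asKO, with no overlap between groups, and Spred1 held 56.4% ± 0.940 and 60.2% ± 2.56 of the sum. Whether Spred1 changed more than Spred2 or Spred3 was not tested.

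**Figure D2:**
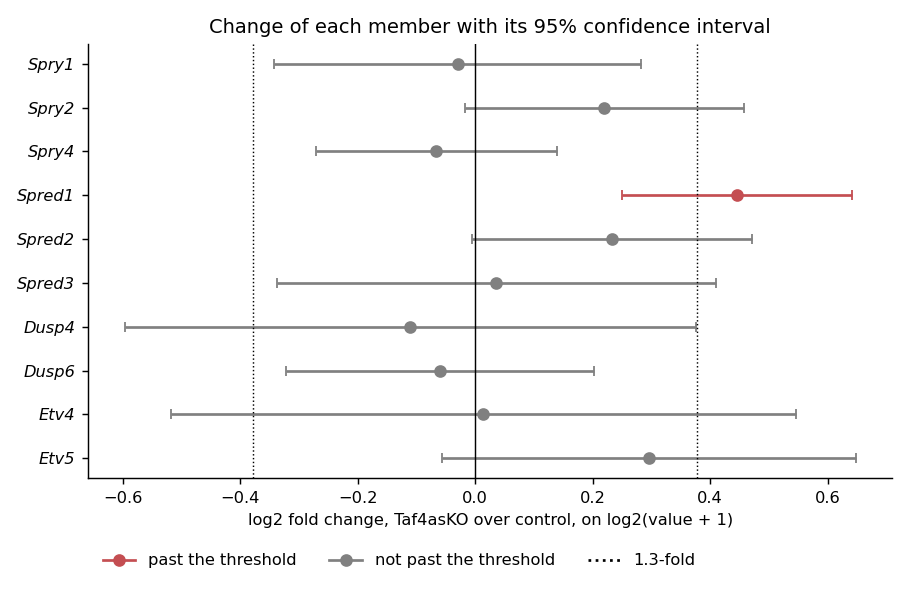
Log2 fold change of each gene, Taf4asKO over control, with its 95% confidence interval from limma (x axis, on log2(value + 1); red, past the threshold; dotted lines, 1.3-fold). The interval of Spred1 (0.25 to 0.64) excludes 0, and those of the other 9 genes include it.

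Dusp6 and Dusp4 encode phosphatases that act on ERK, the first in the cytoplasm and the second in the nucleus, and both genes are transcribed in response to ERK activity. Dusp6 (ENSMUSG00000019960, chromosome 10, 99263231 to 99267489, plus strand) showed 740, 962 and 810 normalized counts in the 3 controls and 791, 846 and 761 in Taf4asKO. The Taf4asKO libraries lay inside the range of the controls, and the log2 fold change was -0.06 (SE 0.12, adjusted p 0.783, interval -0.32 to 0.20). Dusp4 (ENSMUSG00000031530, chromosome 8, 34807297 to 34819894, plus strand) had 311, 554 and 305 in control and 399, 305 and 343 in Taf4asKO. A single library, control replicate 2, stood above the other 5, and the log2 fold change of -0.11 (SE 0.22, adjusted p 0.783) became 0.17 without it. Dusp6 was also highest in control replicate 2, and its log2 fold change became 0.045 without that library. The interval of Dusp4, -0.60 to 0.38 on the log2 scale, holds a fall well past the 1.3-fold limit, so a fall of that size is not excluded.

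Etv5 (ENSMUSG00000013089, chromosome 16, 22381309 to 22439719, minus strand) showed 557, 703 and 872 normalized counts in the 3 controls and 766, 937 and 881 in Taf4asKO. Control replicate 1 was the lowest of the 6 libraries, the groups overlapped, and the gene did not pass (log2 fold change 0.30, SE 0.16, adjusted p 0.249, interval -0.056 to 0.65). With 1 library left out, that value lay between 0.13 and 0.46. Etv4 (ENSMUSG00000017724, chromosome 11, 101769742 to 101785371, minus strand) had 59, 53 and 83 in control and 54, 75 and 66 in Taf4asKO. Both groups averaged 65 normalized counts, with SDs of 15.9 and 10.5 (n = 3), and the log2 fold change was 0.01 (SE 0.24, adjusted p 0.98), with a sign that turned in 7 of 14 alternatives. The interval, -0.52 to 0.55, was the widest of the 10 genes, and changes inside it are not excluded.

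Levels of different genes were compared per kilobase of exon. Spry1 was the highest in both groups, at 2169 ± 426 normalized counts per kilobase in control and 2106 ± 212 in Taf4asKO (SD, n = 3). Spry2 followed at 493 ± 44.6 and 573 ± 42.1, and Spred1 was the third at 339 ± 16.2 and 462 ± 15.6, each without overlap with its neighbours in the order. Dusp6 (267 ± 36.2 in control), Spred2 (242 ± 21.4) and Spry4 (223 ± 9.78) overlapped from one to the next in control and formed no resolved order, and Spred2 stood above Dusp6 in the mean of Taf4asKO, again with overlap. Etv5 (173 ± 38.4 in control) and Dusp4 (142 ± 51.8) came next and overlapped in control. Etv4 (20.9 ± 5.11) and Spred3 (20.4 ± 1.81) were the lowest in control and did not differ beyond their spread in either group.

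**Figure D3:**
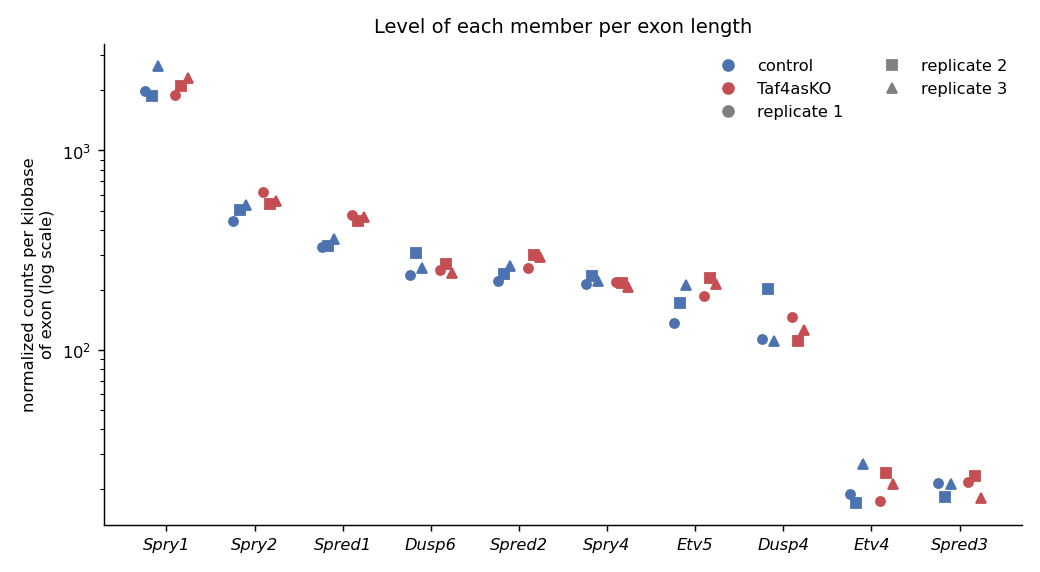
Normalized counts per kilobase of exon for each gene and library, ordered by the control mean (log y axis; blue, control; red, Taf4asKO; symbol shape, replicate number). Spry1 stands highest (2169 in the control mean) and Etv4 and Spred3 lowest (20.9 and 20.4) in both groups.

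The stretch before the transcription start of RefSeq was examined for 7 of the 10 genes, for which the RefSeq table used here held an entry (GRCm38.p6, the assembly of mm10). CCAAT, the word bound by NF-Y, a factor that the study also profiled in these cells, was searched on both strands in the 250 bases before the start, along with the ETS word CCGGAAG, the TATA word TATAAA and the AP-1 word TGACTCA. The first of these or its complement was found in Spry1, Dusp6 and both starts of Etv5, that is, in 4 of 8 windows, against 33.8% of 32851 windows over all genes. The other words were in none of the 8 windows, against 6.91%, 12.4% and 4.46% of all windows in the same order. The windows of Spred1, which passed the threshold, and of Dusp6 and Etv5, which did not, are shown. Each is given 5′ to 3′ on the strand of the gene, with CCAAT or its complement in capitals. Spry2, Spred2 and Spred3, which did not pass either, held no match to CCAAT and are not shown. Spred1 (chr2:117120821-117121070, plus strand) held no match and 70.8% G and C, Dusp6 (chr10:99262981-99263230, plus strand) held 1 match, 46 to 42 bases before the start, and the upstream start of Etv5 (chr16:22439571-22439820, minus strand) held 3.
Spred1: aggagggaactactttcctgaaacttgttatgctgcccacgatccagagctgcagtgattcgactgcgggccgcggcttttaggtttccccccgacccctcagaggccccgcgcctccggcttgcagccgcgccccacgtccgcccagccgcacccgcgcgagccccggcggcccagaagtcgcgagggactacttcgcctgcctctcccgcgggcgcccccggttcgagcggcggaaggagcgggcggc
Dusp6: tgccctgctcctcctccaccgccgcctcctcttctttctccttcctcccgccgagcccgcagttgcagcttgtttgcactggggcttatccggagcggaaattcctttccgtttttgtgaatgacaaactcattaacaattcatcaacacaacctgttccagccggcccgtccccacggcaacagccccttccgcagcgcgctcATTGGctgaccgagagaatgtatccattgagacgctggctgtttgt
Etv5: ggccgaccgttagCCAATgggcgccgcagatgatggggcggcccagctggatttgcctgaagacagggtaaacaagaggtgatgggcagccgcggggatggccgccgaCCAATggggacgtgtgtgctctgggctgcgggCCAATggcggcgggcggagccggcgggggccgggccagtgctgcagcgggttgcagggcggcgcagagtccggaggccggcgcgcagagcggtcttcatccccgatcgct

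Receptors and ligands feed the cascade from outside the cell. Of 15 listed genes for receptors, ligands and coreceptors, 14 were tested, and 2 passed higher and 2 lower, against 12.6% of all genes tested in either direction. The median log2 fold change of the 14 genes was -0.19, against 0.004 for all genes tested. Fgfr4, an FGF receptor enriched in the muscle lineage, fell from 9821, 8148 and 8832 normalized counts (controls) to 4816, 4686 and 4675 (Taf4asKO; log2 fold change -0.91, SE 0.10, adjusted p 0.000529). Met, the receptor for hepatocyte growth factor, fell from 925, 800 and 781 to 493, 544 and 408 (-0.80, SE 0.13, adjusted p 0.00414). In both genes all Taf4asKO libraries lay below all controls.

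Fgf2, a ligand that activates MuSCs, rose from 132, 158 and 138 to 242, 289 and 301 (log2 fold change 0.95, SE 0.15, adjusted p 0.00317). Sdc4, a heparan sulfate proteoglycan that serves as FGF coreceptor on MuSCs, rose from 5564, 5586 and 5814 to 12662, 9579 and 9266 (0.88, SE 0.12, adjusted p 0.00211). Each of these 4 genes passed in all 14 alternatives. Fgfr1, another FGF receptor, had 9759 ± 209 in control and 8322 ± 513 in Taf4asKO and did not pass (-0.23, SE 0.09, adjusted p 0.131). All Taf4asKO libraries of Fgfr1 lay below all controls, and its interval was -0.44 to -0.025.

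Inside the cascade, 1 of 23 listed genes passed, against 12.6% of all genes tested. Rps6ka3, a kinase activated by ERK, rose from 1760 ± 152 to 2374 ± 301 normalized counts (SD, n = 3; log2 fold change 0.43, SE 0.11, adjusted p 0.0366), but the call was lost when any library other than control replicate 2 was left out (0.33 to 0.51, adjusted p 0.0540 to 0.124, and 0.0141 to 0.124 over all alternatives). Mapk3, which encodes the ERK1 kinase, overlapped between groups (log2 fold change 0.13, SE 0.12, adjusted p 0.519). The median over the 23 genes was 0.042, and RNA levels carry no information on the phosphorylation that sets the activity of these kinases.

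Of 13 listed brakes on RAS signalling, 12 were tested and 0 passed the threshold by limma, also with the block, and 6 had an unadjusted p under 0.05 (28.8% of all genes tested). Nf1, the partner of Spred1, was at 3552, 3397 and 3474 normalized counts in the controls and at 3969, 3969 and 3981 in Taf4asKO. These groups did not overlap, and the difference (log2 fold change 0.19, SE 0.08, adjusted p 0.157) did not pass. The RAS GTPase-activating genes Rasa1, Rasa3 and Rasal2, named here after their values were seen, had an adjusted p under 0.05 with a fold change short of 1.3. Their log2 fold changes were 0.33 (adjusted p 0.0424), 0.35 (0.0336) and 0.36 (0.0479). The median of the 12 genes was 0.22.

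Of 8 other MAP kinase phosphatases, 3 passed the threshold, against 12.6% of all genes tested. Dusp1, an immediate early phosphatase of the nucleus that also acts on p38 and JNK, rose from 4669, 3889 and 5132 normalized counts to 9366, 8771 and 8326 (log2 fold change 0.96, SE 0.12, adjusted p 0.000998). Dusp5, a nuclear phosphatase selective for ERK, rose from 160, 128 and 208 to 363, 271 and 308 (0.94, SE 0.19, adjusted p 0.0114) and lost its call without Taf4asKO replicate 1 (0.83, adjusted p 0.0592) or Taf4asKO replicate 3 (0.95, 0.0512). Over all alternatives, the adjusted p of Dusp5 lay between 0.00163 and 0.0592. Dusp2, a phosphatase best known from activated immune cells, fell from 30, 33 and 28 to 8, 5 and 4 (-2.27, SE 0.36, adjusted p 0.00384). Dusp7, Dusp8, Dusp9, Dusp10 and Dusp16 did not pass, with log2 fold changes between -0.30 and 0.12.

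Among 10 other genes known to respond to ERK, 9 were tested and 6 passed, 4 higher and 2 lower. Of all genes tested, 5.93% passed higher and 6.71% lower. Etv1, the third PEA3 factor beside Etv4 and Etv5, rose from 106, 127 and 201 normalized counts to 253, 292 and 280 (log2 fold change 0.97, SE 0.22, adjusted p 0.0172). Egr1, an immediate early transcription factor, rose from 72816, 59848 and 79197 to 119554, 105889 and 102958 (0.64, SE 0.15, adjusted p 0.0224). Phlda1, a target of growth factor signalling, rose from 174 ± 29.7 to 269 ± 42.0 (0.63, SE 0.17, adjusted p 0.0415), and Epha2, named after its values were seen, also passed higher (0.52, adjusted p 0.0250). Etv1 lost its call without Taf4asKO replicate 1, 2 or 3 (log2 fold change 1.03, 0.93 and 0.96, adjusted p 0.0524 to 0.0819). Egr1 did so without the same libraries (0.57, 0.66 and 0.68, adjusted p 0.0686 to 0.0873). Epha2 did so without control replicate 1 (0.49) or Taf4asKO replicate 1, 2 or 3 (0.44, 0.52 and 0.59), with adjusted p 0.0528 to 0.1004. Phlda1 did so without any library other than control replicate 2 (0.49 to 0.76, adjusted p 0.0586 to 0.175).

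The cell cycle regulator Ccnd1, which ERK activity induces, went the other way, from 2979, 3586 and 2741 to 1694, 2330 and 1985 (log2 fold change -0.63, SE 0.14, adjusted p 0.0156). The ephrin receptor Epha4 fell from 295, 307 and 297 to 141, 182 and 152 (-0.92, SE 0.14, adjusted p 0.00291) and was the only 1 of these 6 genes that passed in every alternative. Ccnd1 lost its call without Taf4asKO replicate 1 (-0.52, adjusted p 0.0628) or 3 (-0.63, 0.0636). With the replicate number as a block, Fosl1, named after its values were seen, also passed lower (-0.99, adjusted p 0.122 without the block and 0.0392 with it, range 0.0342 to 0.361). Without Taf4asKO replicate 1, 2 or 3, the number of the 9 genes past the threshold was 1, 2 or 1. Total-count scaling ended the call of Egr1 (0.64, adjusted p 0.0982), as did upper-quartile scaling (0.61, 0.0538), with 0.00425 to 0.0982 over all alternatives.

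Early response genes that tissue dissociation induces moved with the groups too. Of 9 listed, 3 passed higher and 2 lower, against 5.93% and 6.71% of all genes tested. With the replicate number as a block, Atf3, named after its values were seen, also passed higher (log2 fold change 1.17, adjusted p 0.0524 without the block and 8.69e-05 with it, range 8.69e-05 to 0.127). The sum of the 9 genes was 173433 to 198542 normalized counts in control and 230803 to 304458 in Taf4asKO. Junb (log2 fold change 0.91, adjusted p 0.00191), Fos (0.82, 0.00399) and Ier2 (0.61, 0.00299) rose, and the inducible heat shock genes Hspa1a (-1.52, 0.00390) and Hspa1b (-1.62, 0.00488), near-identical copies counted from reads that map to 1 of them alone, since multi-mapping reads were removed, fell. Dusp1, Dusp5, Egr1 and Phlda1 rose in the same libraries. The part of cell isolation in these values was not tested.

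**Figure D4:**
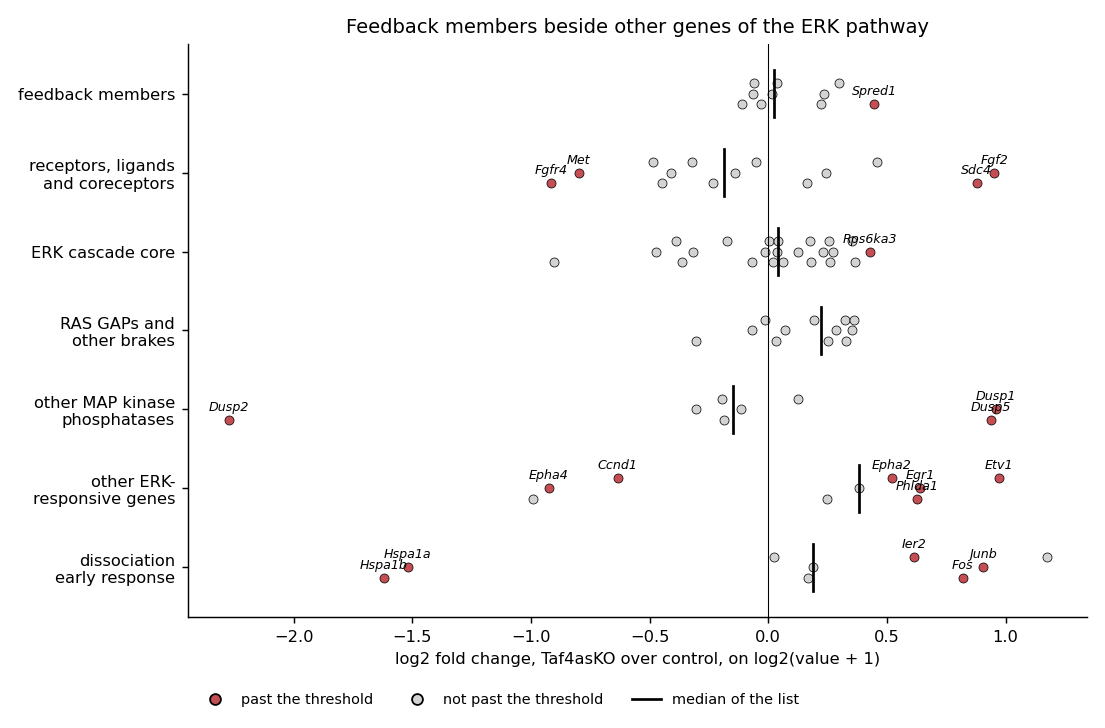
Log2 fold change, Taf4asKO over control, of each tested gene of 7 lists (x axis, on log2(value + 1); red, past the threshold, with its symbol; grey, not past it; black bar, median of the list; vertical offsets only separate points). The 10 feedback genes lie between -0.11 and 0.45, while receptors, other phosphatases and other ERK-responsive genes reach beyond -0.9 and 0.9.

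The genes whose profile over the 6 libraries was most like that of a feedback gene were sought for Spry1 and Dusp6 across 10586 genes, those averaging 50 or more normalized counts whose symbol is no Gm number or Rik name. Likeness was the root mean square difference of log2 values after centring each gene on its own mean. For Spry1 the nearest were Sox5 (0.037), Egfr (0.040) and Stn1 (0.053), where the median over the genes compared was 0.30. Egfr, a receptor whose signalling Sprouty proteins modulate, was at 3980, 3545 and 4939 normalized counts in the controls and at 3503, 4038 and 4423 in Taf4asKO, with its highest value in control replicate 3 as in Spry1. For Dusp6 the nearest were Fut8 (0.020), Zfp637 (0.021) and Tceal9 (0.035), where the median was 0.23, and all 3 were highest in control replicate 2. These are descriptions of 6 shared libraries.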

How the data were processed

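RNA-seq of 6 sorted MuSC libraries, 3 per group, was analysed. As the labels and methods describe, the authors used Trimmomatic 0.39 for trimming and STAR 2.6.0c for alignment to mm10, removed multi-mapping reads, counted over exons with featureCounts 1.6.0 without reads overlapping several genes, and normalized with DESeq2 1.14.1. The kit marks strand, but the strand setting of the counting is not stated. The deposited values are a score: normalized counts that the authors rounded to whole numbers, and 0 value columns lacked a sample. Size factors were estimated from the spacing of the values (0.858 to 1.33).

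Genes with a mean of at least 5 entered a linear model in limma 3.58.1 (R 4.3.3) on log2(value + 1) (intensity trend, two-sided, no covariate, Benjamini-Hochberg over 18562 genes), so fold changes of low genes are understated. The limits (adjusted p under 0.05, 1.3-fold) follow the study. As the values were already normalized, no count test was run on them. Members and lists were chosen with earlier results of these data known. Besides the 10 genes, the text names up to 3 genes per list and direction past the threshold, and Nf1, Fgfr1, Fgfr4 and Mapk3. Some genes of the lists are not reported here. Markers of 6 other cell types and of MuSCs were examined. Blood markers Ptprc, Adgre1 and Cd3e were not analysed here, and the other 2 (Cd68, Hba-a1) summed to 186 to 304 in control and 213 to 224 in Taf4asKO. The 5 muscle fibre markers summed to 1170 to 3618 and 2045 to 2602, with 0 past the threshold. Exon lengths came from GENCODE M21, which held 99.8% of gene identifiers. The fit was tested on simulated data.

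Within each group, all libraries differed by more than sampling noise (chi-square over degrees of freedom, 4.52 to 41.7). The study states that its quantitative analyses used biological replicates, but the labels do not tie libraries to mice, so p-values measure the spread between these samples. Replicate numbers came from the sample titles. For libraries with the same number, deviations from the group mean correlated at 0.235, 0.126 and 0.150, so the numbers were taken to pair the libraries, and the model was also fitted with that number as a block. Other alternatives were scaling by total count, by the upper quartile, or by a total that leaves out the 100 most abundant, the mitochondrial and the ribosomal protein genes, a pseudocount of 0.1, other filters on the mean (none, 20), limma-voom on estimated reads, and leaving out each library.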

Additional observations from a re-analysis of the deposited data

How the results depend on the processing

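The 14 alternatives kept the sign and side of the threshold for 126 of 140 values of the 10 genes and 285 of 307 values of the other genes chosen by the naming rule. The replicate block (3355 genes past the threshold, 18.1%, with 1688 higher) changed no call among these genes, and its pairing gave an adjusted p of 0.00468 for Spred1. Leaving out 1 library gave 956 to 3096 genes in all, 350 to 1607 higher and 595 to 1489 lower. It gave 0 to 1 of the 10 feedback genes, 0 to 3 of the cascade genes, 0 to 1 of the brakes and 1 to 7 of the other ERK-responsive genes. The cascade count of 1 was 2 with upper-quartile scaling and with scaling by a total that leaves out the 100 most abundant, mitochondrial and ribosomal protein genes. Of the values that turned sign, Etv4 was -0.019 with upper-quartile scaling, -0.0047 without abundant genes in the scaling and -0.0098 with limma-voom. Over the analyses without 1 library, Etv4 ranged from -0.12 to 0.20, Spry1 from -0.13 to 0.13, Spred3 from -0.042 to 0.14, Dusp4 from -0.26 to 0.17 and Dusp6 from -0.14 to 0.045. The 22 other values that moved all lost a call. They were of Rps6ka3, Phlda1, Egr1, Etv1, Dusp5 and Ccnd1, with Ccnd1 at an adjusted p of 0.0628 without Taf4asKO replicate 1 and 0.0636 without Taf4asKO replicate 3. The cause was not tested.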

Other observations

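The locus of Spry1 held a transcript that changed more than any of the feedback genes, noticed after its values were seen. Gm42922 (ENSMUSG00000104605, mm10 chromosome 3, 37638579 to 37640656, minus strand), a gene model still to be verified in the annotation, which overlaps the start of Spry1 head to head, was at 1, 6 and 9 normalized counts in the controls and at 50, 50 and 55 in Taf4asKO. The groups did not overlap, and the gene passed the threshold (log2 fold change 3.34, SE 0.54, limma adjusted p 0.00401), in 14 of 14 alternatives with adjusted p from 0.000601 to 0.0254. Spry1 itself had 5444 to 7720 and 5504 to 6738 in the same libraries. Of 13 other genes in the table within 300 kilobases of Spry1, 10 were tested and 2 passed, Gm42922 and Fgf2, both higher. The strand setting of the counting is not stated, so reads of the shared stretch cannot be told apart.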
